A study of Homo sapiens with 6 samples.

Results

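The genes described here are 10 regulators of cell death: 5 BH3-only members of the BCL2 family (BBC3, PMAIP1, BCL2L11, BIK and BID), the pore-forming member BAX, the anti-apoptotic members BCL2L1 and MCL1, and the TRAIL death receptors TNFRSF10A and TNFRSF10B. They were chosen by symbol, and each was found once among the 53826 entries of the expression tables. Expression was measured by RNA-seq in PK-1 and Panc-1 cells, established human pancreatic ductal adenocarcinoma lines, with 1 library for each of 6 conditions. In each line the conditions were the control, RARγi-1 (LY2955303) and RARγi-2 (MM11253), antagonists of retinoic acid receptor γ, and treatment lasted 24 h. Both lines carry altered CDKN2A by the study's own table, and PK-1 also carries altered SMAD4. The doses used for RNA-seq and the vehicle of the controls were not stated, and other assays of the study used a different dose for each inhibitor, so the values of the inhibitors are given side by side. A treatment entry reads RARγi-1 for both RARγi-2 libraries, and the libraries were grouped by their titles.

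In the mitochondrial pathway of apoptosis, BH3-only proteins bind and neutralise anti-apoptotic proteins such as BCL-XL (from BCL2L1) and MCL1, and some of them directly activate BAX and BAK, which then permeabilise the outer mitochondrial membrane. TRAIL receptors recruit FADD and caspase-8 at the plasma membrane, and caspase-8 can cleave BID, which connects the receptor pathway with mitochondria. BBC3 (PUMA), PMAIP1 (NOXA) and TNFRSF10B (DR5) are known targets of stress-induced factors such as ATF4 and CHOP.

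The promoters of the 3 BH3-only genes whose RNA was higher by more than 2-fold in at least 1 treated library are printed here. RefSeq windows from GRCh38.p14 ran from 250 bases before to 50 bases after an annotated start site. They were examined for 6 of the 10 genes, as 11 windows. No window was available for MCL1 and BIK. The TRAIL receptor genes were left out, so the motif searches given below do not cover them. The BBC3 window is chr19:47232618-47232917 on the minus strand, the PMAIP1 window is chr18:59899746-59900045 on the plus strand and the BCL2L11 window is chr2:111120664-111120963 on the plus strand. Each is written 5′ to 3′ along the gene, and capitals mark matches to the AP-1 motif TGANTCA or the GC box GGGCGG, read on both strands.
BBC3: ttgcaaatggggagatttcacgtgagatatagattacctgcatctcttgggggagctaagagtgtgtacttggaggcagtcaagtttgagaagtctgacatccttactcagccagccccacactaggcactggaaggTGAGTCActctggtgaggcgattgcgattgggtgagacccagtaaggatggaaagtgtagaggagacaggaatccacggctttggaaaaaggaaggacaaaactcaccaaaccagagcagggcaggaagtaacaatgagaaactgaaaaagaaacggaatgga
PMAIP1: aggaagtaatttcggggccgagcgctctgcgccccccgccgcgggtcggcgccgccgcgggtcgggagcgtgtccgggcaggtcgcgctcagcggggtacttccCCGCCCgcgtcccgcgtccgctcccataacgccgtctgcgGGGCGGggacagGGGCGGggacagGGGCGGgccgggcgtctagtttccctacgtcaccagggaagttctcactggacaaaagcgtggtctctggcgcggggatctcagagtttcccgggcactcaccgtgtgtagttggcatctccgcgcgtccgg
BCL2L11: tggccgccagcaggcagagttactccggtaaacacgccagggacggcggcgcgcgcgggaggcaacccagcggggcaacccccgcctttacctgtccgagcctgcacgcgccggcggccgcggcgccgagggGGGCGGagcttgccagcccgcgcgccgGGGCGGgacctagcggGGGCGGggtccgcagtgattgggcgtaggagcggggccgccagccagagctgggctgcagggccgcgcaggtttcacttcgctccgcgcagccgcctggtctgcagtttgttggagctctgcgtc
The BBC3 window held 1 AP-1 match, TGAGTCA, whose first base lies at position -113 from the start site, and no GC box. The PMAIP1 window held 4 GC boxes, starting at -146, -106, -94 and -82, and the BCL2L11 window held 3, starting at -118, -91 and -75. GC content was 48.0% for BBC3, 71.3% for PMAIP1 and 74.7% for BCL2L11. Among 35116 RefSeq windows of the same length, 7.71% held the AP-1 motif and 45.0% held the GC box. The CEBP-ATF composite element TGATGNAA, present in 3.62% of all windows, and the cyclic AMP response element TGACGTCA, present in 1.85%, had no match in the windows of the 6 genes. These letters describe the windows and say nothing about whether a factor was bound, and other start sites of the genes lie outside them.

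Levels are given in TPM, a transcript abundance scale corrected for transcript length and library size. The lowest value in the deposited files is 1 TPM, to which anything smaller had been set, and it is called the floor here. In the PK-1 control library, the anti-apoptotic genes had the highest levels of the 10, with 211 TPM for MCL1 and 191 TPM for BCL2L1. BAX followed at 119 TPM, BID at 71.2 TPM, BIK at 51.9 TPM, PMAIP1 at 36.4 TPM and TNFRSF10A at 21.9 TPM. BCL2L11 and BBC3 were low, at 5.62 and 3.39 TPM, and TNFRSF10B was at the floor. In the Panc-1 control library the same 4 genes led, with BCL2L1 at 219 TPM, MCL1 at 137 TPM, BAX at 112 TPM and BID at 48.1 TPM. TNFRSF10B stood next at 31.9 TPM, ahead of TNFRSF10A at 9.21 TPM, BBC3 at 6.74 TPM, BCL2L11 at 5.08 TPM and PMAIP1 at 4.60 TPM, whereas BIK was at the floor. Each line thus had a different gene of the 10 at the floor, TNFRSF10B in PK-1 and BIK in Panc-1. With 1 library per condition, neighbours in either order cannot be told apart by a test.

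**Figure D1:**
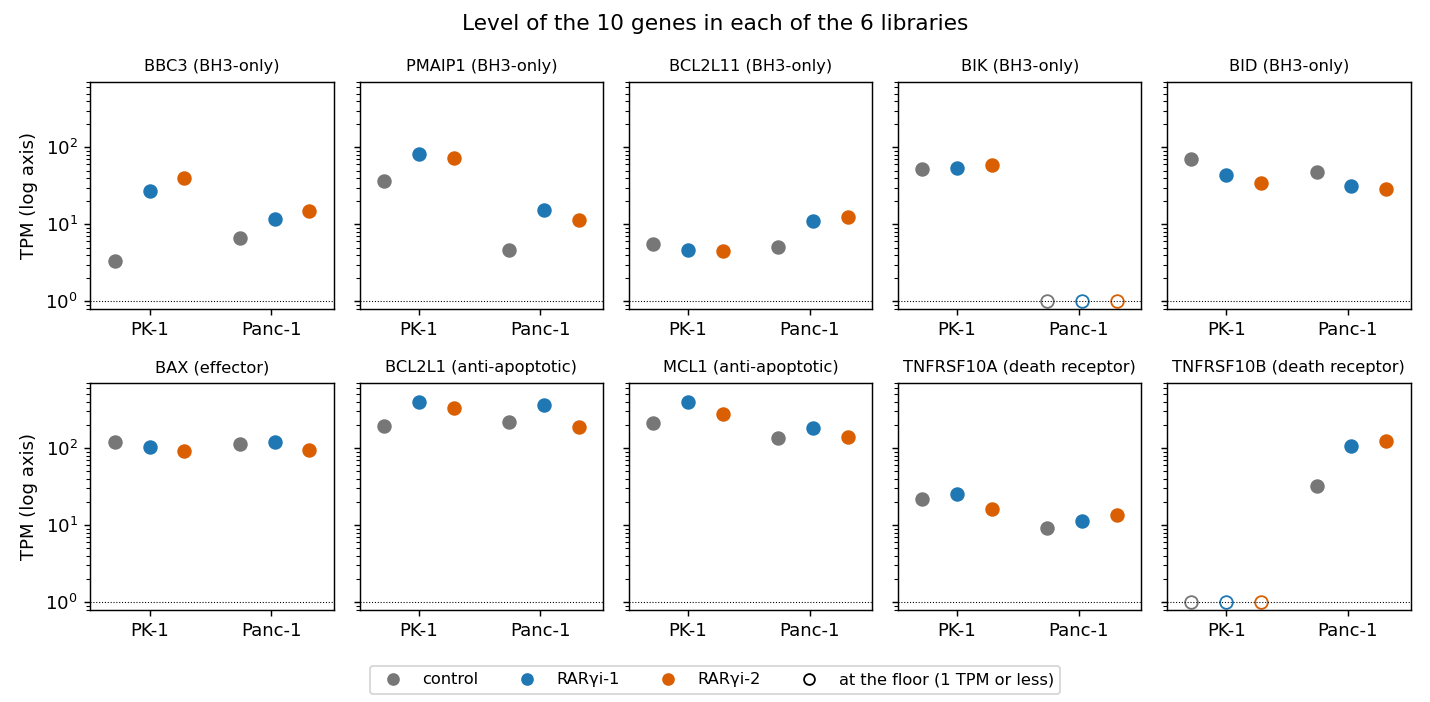
Levels of the 10 genes in the 6 libraries, 1 point per library, in TPM on a log axis, with open points and a dotted line at the floor of 1 TPM. BBC3 sits at 3.39 TPM in the PK-1 control and at 27.4 and 40.5 TPM in the treated libraries, TNFRSF10B sits at the floor in PK-1, and BIK sits at the floor in Panc-1.

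Fold changes compare a treated library with the control library of its line, as log2 of (TPM + 1) treated over (TPM + 1) control, and a gene was called when it passed 2-fold. There were no replicates, so no difference could be tested, and both comparisons within a line share 1 control library. The robust SD of the difference between the treated libraries of a line (RARγi-2 minus RARγi-1), 0.41 on the log2 scale in PK-1 over 11268 entries of at least 5 TPM and 0.32 in Panc-1 over 11056, is the nearest measure of variation available. It holds the difference between the inhibitors as well as library error. In each comparison 9 of the 10 genes were above the floor in at least 1 library of the line. As these are bulk RNA measurements, fewer cells expressing a gene and less RNA per cell cannot be told apart.

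In PK-1 cells treated with RARγi-1, 3 of the 10 genes (BBC3, PMAIP1 and BCL2L1) were higher by more than 2-fold and 0 were lower, where 9.05% of the 14269 entries above the floor in that line were higher and 4.85% lower. With RARγi-2, BBC3 was the 1 gene higher and BID the 1 gene lower by more than 2-fold, against 11.9% of entries higher and 12.3% lower. In Panc-1 cells treated with RARγi-1, PMAIP1, BCL2L11 and TNFRSF10B were higher by more than 2-fold and 0 genes were lower, against 7.3% higher and 5.96% lower among 14184 entries. With RARγi-2, these 3 genes and BBC3 were higher and 0 were lower, against 8.34% and 11% of entries. The median log2 fold change of the genes above the floor was 0.21 in PK-1 with RARγi-1, 0.18 in PK-1 with RARγi-2, 0.71 in Panc-1 with RARγi-1 and 0.52 in Panc-1 with RARγi-2, beside medians over all entries of 0.13, 0.01, 0.08 and -0.01 in the same order. PMAIP1 was past 2-fold in 3 of the 4 comparisons and BBC3 in 3. In the others, PMAIP1 in PK-1 with RARγi-2 had 1.99 times the TPM of the control and BBC3 in Panc-1 with RARγi-1 had 1.77 times. Just inside the threshold lay BCL2L11 in Panc-1 with RARγi-1, at 1.01 on the log2 scale, and BCL2L1 in PK-1 with RARγi-1, at 1.04. Rescaling the libraries by their median ratio left them at 0.92 and 0.91, and it put PMAIP1 in PK-1 with RARγi-2 at 1.01.

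**Figure D2:**
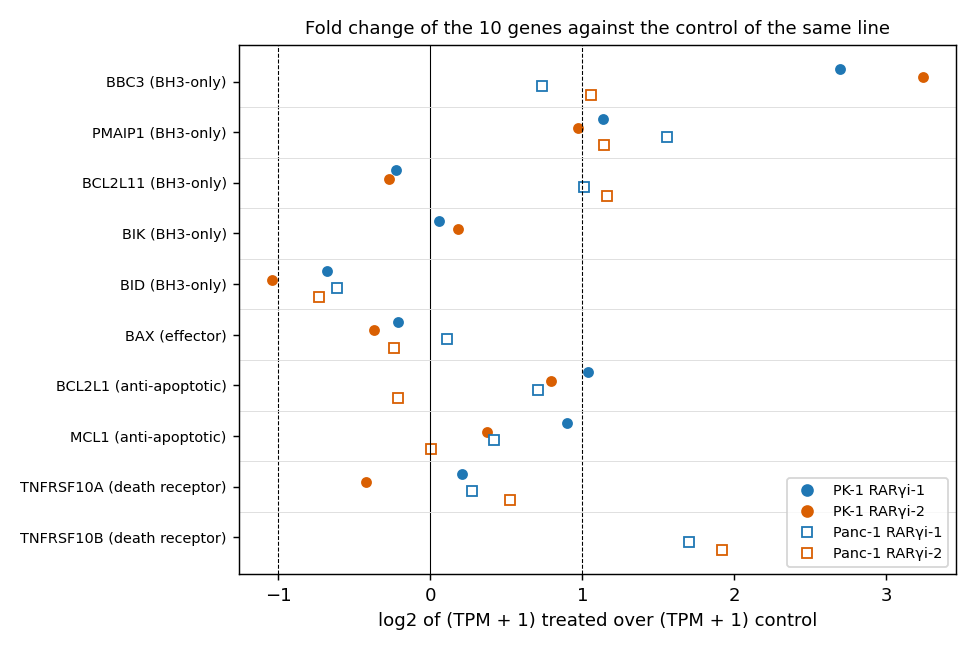
Log2 fold changes of the 10 genes over the control library of the line, 1 point per treated library, with dashed lines at 2-fold in either direction. BBC3 in PK-1 lies at 2.69 and 3.24, TNFRSF10B in Panc-1 at 1.70 and 1.92, and BID lies under 0 in all 4 comparisons.

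Among the BH3-only genes, BBC3 encodes PUMA, which binds all major anti-apoptotic BCL2 proteins, and the gene lies at chr19:47220824-47232860 in GRCh38.p14. Its level in PK-1 was 3.39 TPM in the control, 27.4 TPM after RARγi-1 and 40.5 TPM after RARγi-2, while in Panc-1 it was 6.74, 11.9 and 15.1 TPM in the same order. Every treated library was above its control, and the PK-1 libraries were further from it. PK-1 gave log2 fold changes of 2.69 and 3.24, higher than in 99.6% and 99.5% of entries, whereas Panc-1 gave 0.74 and 1.06. The starting level in PK-1 was close to the floor, so the ratio to it, 8.08 and 11.9 without the pseudocount, depends on a value for which depth is unknown.

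PMAIP1 (chr18:59899996-59904305) encodes NOXA, a BH3-only protein that preferentially binds MCL1. In PK-1 it was measured at 36.4 TPM in the control and at 81.3 and 72.3 TPM with RARγi-1 and RARγi-2. In Panc-1 the control had 4.60 TPM and the treated libraries 15.5 and 11.4 TPM. PMAIP1 was higher in all 4 treated libraries, by log2 differences of 1.14 and 0.97 in PK-1 against 1.56 and 1.14 in Panc-1. The treated Panc-1 libraries nevertheless stayed below the PK-1 control.

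BCL2L11 (chr2:111120914-111168445) encodes BIM, an activator of BAX and BAK. Its level in PK-1 was 5.62 TPM in the control and 4.67 and 4.48 TPM in the treated libraries, whereas in Panc-1 it was 5.08 TPM in the control and 11.2 and 12.6 TPM with RARγi-1 and RARγi-2. The control levels of the lines were similar, and the treated libraries lay below the control in PK-1 and above it in Panc-1. PK-1 had log2 fold changes of -0.23 and -0.27, within the spread there, whereas Panc-1 had 1.01 and 1.16. The difference between the lines was not tested.

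BIK (chr22:43110750-43129712), a BH3-only protein of the endoplasmic reticulum, was at 51.9, 53.9 and 59.0 TPM in PK-1 and at the floor in Panc-1 with or without treatment. Its log2 fold changes in PK-1, 0.05 and 0.18, were within the spread, and the sign of the first turned when libraries were rescaled by their median ratio, to -0.07. BID (chr22:17734138-17774665), the substrate of caspase-8 that links death receptors to mitochondria, was the 1 BH3-only gene below the control in all 4 treated libraries. It was measured at 71.2 TPM in the PK-1 control and at 44.2 and 34.1 TPM with RARγi-1 and RARγi-2. In Panc-1 the levels were 48.1, 31.1 and 28.6 TPM. PK-1 gave log2 fold changes of -0.68 and -1.04 while Panc-1 gave -0.61 and -0.73, and 1 of these 4 passed 2-fold.

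BAX (chr19:48954875-48961798), the effector that forms pores in the outer mitochondrial membrane, was abundant in every library, at 119, 103 and 91.8 TPM in PK-1 and at 112, 120.3 and 94.3 TPM in Panc-1. Its log2 fold changes lay between -0.37 and 0.11, which was within the spread of the line in all 4 comparisons.

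Of the anti-apoptotic genes, BCL2L1 (chr20:31664452-31723963) encodes BCL-XL in its long isoform and a pro-apoptotic protein in its short isoform, and the isoforms share 1 value here. In PK-1 its level was 191 TPM in the control, 394 TPM after RARγi-1 and 332 TPM after RARγi-2. In Panc-1 it was 219, 359 and 189 TPM. Both treated PK-1 libraries and the RARγi-1 library of Panc-1 were above their control, and the RARγi-2 library of Panc-1 was below it. The log2 fold changes were 1.04, 0.80, 0.71 and -0.21, and the first of these, the 1 value past 2-fold, was 0.91 after median-ratio rescaling.

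MCL1 (chr1:150574558-150579610) encodes a short-lived anti-apoptotic protein that is bound by NOXA. It was measured at 211, 396 and 274 TPM in PK-1 and at 137, 183 and 138 TPM in Panc-1. PK-1 gave log2 fold changes of 0.90 and 0.37 while Panc-1 gave 0.42 and 0.00, none past 2-fold, and the RARγi-2 value was within the spread in both lines. In each line the RARγi-1 library held the highest level of both anti-apoptotic genes.

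The TRAIL receptor TNFRSF10A (DR4, chr8:23190452-23225102) was at 21.9, 25.5 and 16.1 TPM in PK-1 and at 9.21, 11.4 and 13.7 TPM in Panc-1. Log2 fold changes of 0.21 and -0.42 for PK-1, and 0.28 and 0.52 for Panc-1, did not pass 2-fold. TNFRSF10B (DR5, chr8:23020133-23069031) was at the floor in all 3 PK-1 libraries, so no fold change is given there. In Panc-1 it was at 31.9 TPM in the control and at 106 and 124 TPM with RARγi-1 and RARγi-2, and log2 fold changes were 1.70 and 1.92, each above 98.3% of entries. In the Panc-1 control the level of TNFRSF10B was above that of TNFRSF10A, and in the treated libraries the distance between them was wider.

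The absence of a measurable TNFRSF10B level in PK-1 was read against neighbouring genes, which were chosen after values were seen. BIN3, CHMP7, R3HCC1 and ENTPD4, genes near TNFRSF10B on the same chromosome, were above the floor in the PK-1 control at 19.7, 26.2, 42.9 and 14.4 TPM. RHOBTB2, which overlaps TNFRSF10B, was at the floor in all 3 PK-1 libraries and between the floor and 2.63 TPM in Panc-1. In all, 95 entries were at the floor in the 3 PK-1 libraries and at 10 TPM or more in each Panc-1 library, and 200 had the reverse pattern. Whether the counting of reads used strand is not given in the sources used here, so reads of TNFRSF10B and of the antisense gene TNFRSF10B-AS1, or of BCL2L1 and BCL2L1-AS1, could not be separated.

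Pro- and anti-apoptotic genes were then set against each other within each library. The summed level of the 5 BH3-only genes was 168 TPM in the PK-1 control and 211 and 210.4 TPM with RARγi-1 and RARγi-2, and in Panc-1 it was 65.5, 70.8 and 68.7 TPM. The summed level of BCL2L1 and MCL1 was 403, 790 and 607 TPM in PK-1 and 356, 542 and 326 TPM in Panc-1. The BH3-only sum was therefore 41.9% of the anti-apoptotic sum in the PK-1 control and 26.8% and 34.7% in the treated libraries, and in Panc-1 it was 18.4%, 13.1% and 21.0%. The ratio was lower than in the control in both PK-1 treated libraries and in Panc-1 with RARγi-1, and higher in Panc-1 with RARγi-2. Adding BAX gave 71.5%, 39.8% and 49.8% in PK-1, against 49.7%, 35.3% and 49.9% in Panc-1. Within the BH3-only sum the levels of BBC3 and PMAIP1 were higher and that of BID lower in every treated library than in its control. These sums are of RNA, and the proteins were not measured in these data.

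The same comparison by fold change gave a median over the 6 pro-apoptotic genes of -0.08 in PK-1 with RARγi-1 and -0.05 with RARγi-2, and of 0.42 and 0.53 in Panc-1. For BCL2L1 and MCL1 the medians were 0.97 and 0.58 in PK-1, against 0.56 and -0.10 in Panc-1. The pro- minus anti-apoptotic difference was -1.05 and -0.63 in PK-1, against -0.14 and 0.63 in Panc-1. In Panc-1, BIK at the floor counted as 0, and without it, an alternative chosen after seeing the data, the differences there were 0.17 and 1.16, so the sign with RARγi-1 rests on that gene. With 6 and 2 genes these medians are descriptions.

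**Figure D3:**
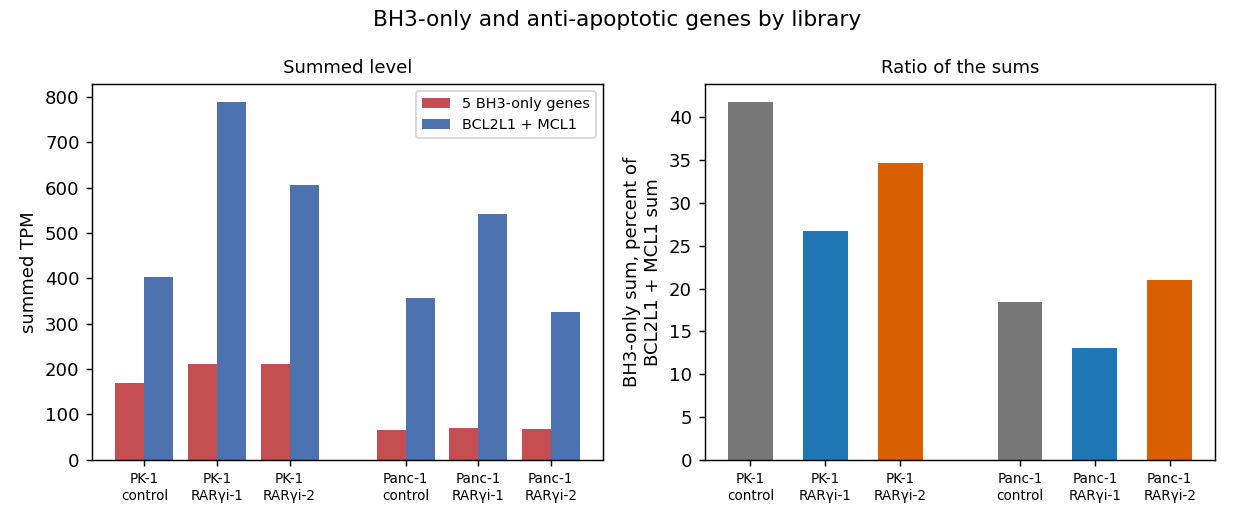
Left, summed TPM of the 5 BH3-only genes and of BCL2L1 with MCL1 in each library; right, the BH3-only sum as a percent of the anti-apoptotic sum. The percent was 41.9, 26.8 and 34.7 in the PK-1 control, RARγi-1 and RARγi-2 libraries and 18.4, 13.1 and 21.0 in those of Panc-1.

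Around these 10 genes, 50 further genes of the apoptosis pathways were examined in 8 lists. Of the 50, 6 were higher and 4 lower by more than 2-fold in PK-1 with RARγi-1, 10 higher and 7 lower with RARγi-2, 4 higher and 3 lower in Panc-1 with RARγi-1, and 8 higher and 3 lower with RARγi-2. PK-1 had 46 of the 50 genes above the floor, of which 13.0% were higher and 8.70% lower with RARγi-1, beside 9.05% and 4.85% of all entries, and 21.7% and 15.2% with RARγi-2, beside 11.9% and 12.3%. Panc-1 had 44, of which 9.09% and 6.82% were higher and lower with RARγi-1, beside 7.3% and 5.96% of all entries, and 18.2% and 6.82% with RARγi-2, beside 8.34% and 11%. The share lower in PK-1 with RARγi-2 and both shares in Panc-1 with RARγi-1 were near those of all entries. Most of the higher genes came from the list of transcription factors known to act on the 10 genes. In it, 5, 6, 4 and 6 of 9 were higher and 1 was lower in each comparison. No other list had more than 1 gene higher in any comparison. The shares higher among the 50 therefore rest mainly on this list and do not describe the other lists. DDIT3, which encodes the stress factor CHOP, was at 48.9 TPM in the PK-1 control and at 377 and 904 TPM in the treated libraries, and log2 fold changes reached 2.92 and 4.18 for PK-1, 2.82 and 3.71 for Panc-1. ATF3, a transcription factor induced by stress, had log2 fold changes of 2.45, 4.13, 4.35 and 6.20 in the same order. TRIB3, a target and cofactor of CHOP, had 2.44, 3.34, 3.09 and 3.65, and ATF4, which drives DDIT3, had 1.27, 1.56, 0.99 and 1.40. JUN, a component of AP-1, the factor whose motif occurs in the BBC3 window, had 1.03, 2.50, 1.08 and 1.34. E2F1, the S-phase factor that can also activate BH3-only genes, was the gene lower by more than 2-fold, at -1.87, -2.12, -2.36 and -2.44. Whether the levels of the 10 genes depend on these factors was not tested.

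In the intrinsic pathway, none of the 5 other BH3-only and BH3-like genes passed 2-fold with RARγi-1 in either line or with RARγi-2 in Panc-1. In PK-1 with RARγi-2, 1 was higher, BMF, which was chosen after its values were seen, at 1.05. With RARγi-1 in PK-1, BMF was just under the threshold at 0.99, and 2.24 times the control without the pseudocount. Its PK-1 levels were 3.82, 8.57 and 9.02 TPM, so the inhibitors differed little. Over all entries, between 7.3% and 11.9% were higher in a comparison and between 4.85% and 12.3% lower. BAD, whose product binds BCL-XL, had log2 fold changes of 0.04, -0.31, -0.22 and -0.66. BNIP3, a hypoxia-responsive mitochondrial protein, was at the floor in PK-1 and at 102, 171 and 199 TPM in Panc-1. BAK1, the effector related to BAX, had 0.71, 0.59, 0.76 and 0.43, and BOK, a further relative of BAX, had 0.47, 0.22, -0.33 and -0.68. Among the 4 other anti-apoptotic genes, BCL2L2 (BCL-W) was higher by more than 2-fold in both PK-1 comparisons, at 1.11 and 1.24, and had 0.47 and 0.49 in Panc-1. Its reads may be shared with the overlapping read-through gene BCL2L2-PABPN1, which was at the floor in the PK-1 control and at 66.4 and 1.95 TPM with RARγi-1 and RARγi-2. BCL2, the founding member of the family, was at 1.22 TPM in the PK-1 control and at the floor in the other 5 libraries. BCL2A1, named after its values were seen, was at the floor in PK-1 and at 62.7, 59.6 and 51.6 TPM in Panc-1. Neither BCL2A1 nor BCL2L2 is part of the anti-apoptotic sum given above, which holds BCL2L1 and MCL1 only.

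Of 8 apoptosome and caspase genes, 0 were higher and 2 lower in PK-1 with RARγi-1, beside 9.05% and 4.85% of all entries. With RARγi-2, 1 was higher and 4 lower, beside 11.9% and 12.3%. In Panc-1, 0 passed 2-fold with RARγi-1, beside 7.3% higher and 5.96% lower. There, 1 was higher and 0 lower with RARγi-2, beside 8.34% and 11%. The gene higher in Panc-1 was CASP9, the initiator caspase of the apoptosome, named after its values were seen, at 1.10. APAF1, the scaffold of the apoptosome, had -1.05 and -1.49 in PK-1, against -0.15 and -0.31 in Panc-1. CASP2, an initiator caspase, had -1.05, -1.83, -0.88 and -0.91. Among 6 inhibitors of apoptosis and their antagonists, 0 were higher by more than 2-fold in any comparison, where 7.3% to 11.9% of all entries were. BIRC5 (survivin), which also acts in mitosis, was lower in all 4, at -1.75, -3.24, -1.85 and -2.22, and BIRC3 (cIAP2) was lower in Panc-1 at -1.17 and -1.74 and had 0.49 and 0.03 in PK-1. The 4 genes that control MCL1 protein turnover did not pass 2-fold, with HUWE1, a ubiquitin ligase of MCL1, between 0.05 and 0.22 and USP9X, a deubiquitinase of MCL1, between 0.12 and 0.48.

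In the receptor pathway, 0 of 12 genes passed 2-fold with RARγi-1 in either line. Of these 12, PK-1 had 10 over the floor, whereas Panc-1 had 8. The share of all entries past 2-fold ran from 7.3% to 11.9% for higher and from 4.85% to 12.3% for lower. With RARγi-2, TRADD, an adaptor of TNF receptor 1, was higher in PK-1 at 1.34 and in Panc-1 at 1.25. FAS was lower in PK-1 at -1.40. Both are named because they were the genes that passed. TRADD was also above its control with RARγi-1, at 0.96 for PK-1 and 0.78 for Panc-1, so its rise was not limited to RARγi-2. TNFSF10, the gene of the ligand TRAIL, also named after its values were seen, was at 9.14, 7.84 and 4.17 TPM in PK-1 and at the floor in Panc-1, where TNFRSF10B was higher. FADD, the adaptor of the TRAIL receptors, was at 83.6, 83.4 and 81.8 TPM in PK-1 and at 100.5, 82.7 and 81.0 TPM in Panc-1. TNFRSF1A, the receptor of TNF, lay between -0.04 and 0.28 on the log2 scale. Of the decoy receptors for TRAIL, TNFRSF10C and TNFRSF11B were at the floor in all 6 libraries. TNFRSF10D, the other one, was at 27.3, 21.9 and 13.8 TPM in PK-1 and at 7.03, 4.64 and 6.69 TPM in Panc-1, and did not pass 2-fold.

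**Figure D4:**
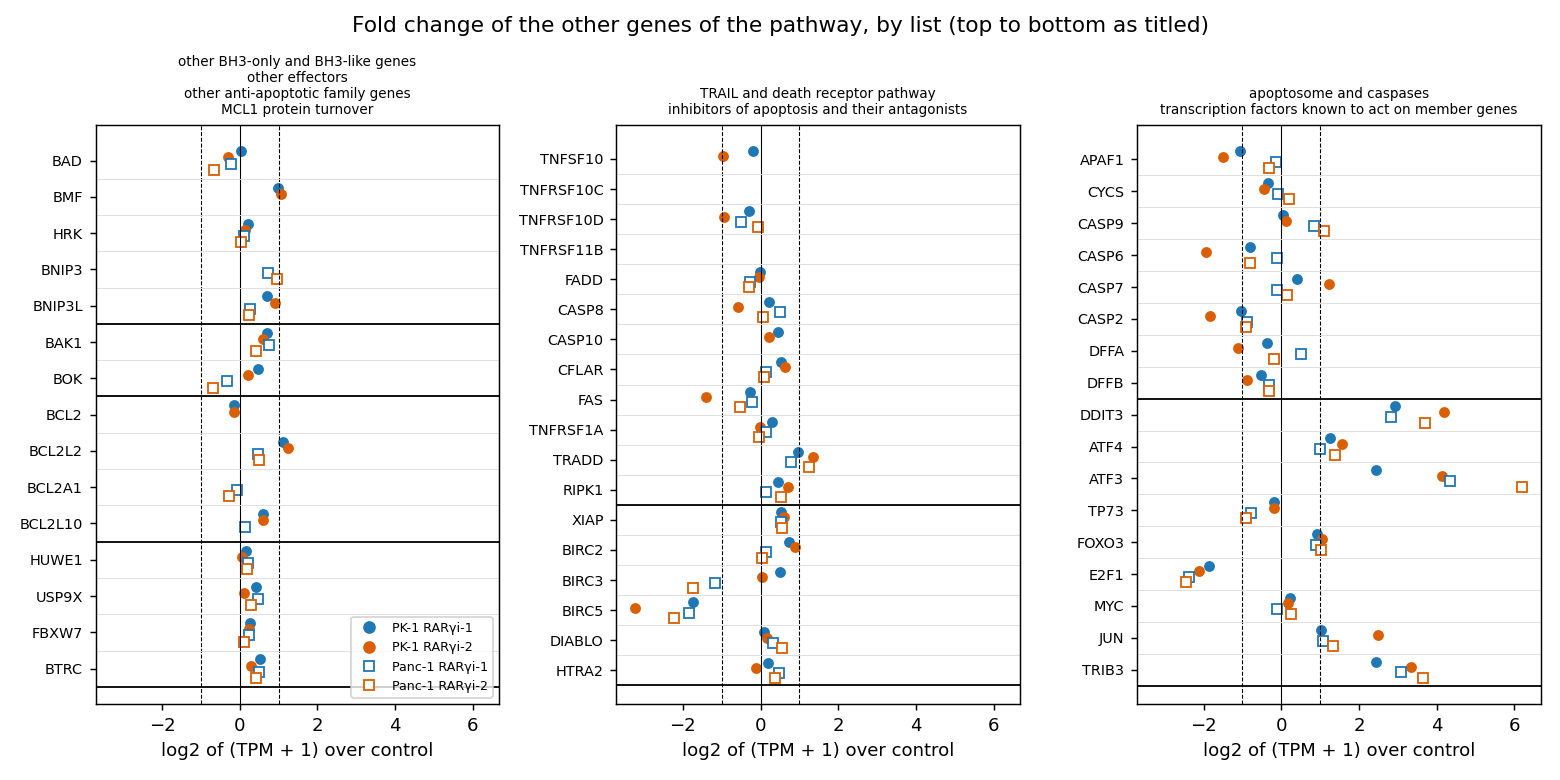
Log2 fold changes of the 50 apoptosis pathway genes by list, 1 point per treated library, with dashed lines at 2-fold; genes at the floor in a line have no point for it. DDIT3, ATF3, TRIB3 and JUN lie beyond the upper line in all 4 comparisons, BIRC5 and E2F1 lie beyond the lower line in all 4, and BIRC3 lies beyond the lower line in Panc-1, where it is at -1.17 and -1.74.

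The entries whose 4 log2 fold changes lay nearest to those of BBC3, PMAIP1 and TNFRSF10B, by Euclidean distance among 10629 entries that reached 10 TPM in any library, were also identified. For BBC3 these were PNRC1 at a distance of 0.54, ULK1 at 0.56 and HIST2H2BE at 0.59. PMAIP1 had closer neighbours, TCEA1 and METTL27 at 0.18 and AMPD3 at 0.19. For TNFRSF10B they were CYP2R1 at 0.21, NNMT at 0.25 and CLDN3 at 0.28. Its PK-1 values, both at the floor, entered the distance as 0, so entries at the floor in PK-1, as these 3 were, match it there by construction.

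The libraries were alike in the share of entries at the floor, between 74.6% and 75.6% in each, which does not measure depth. Keratin genes were expressed in both lines, with KRT8 at 5967 TPM in the PK-1 control and 3530 TPM in the Panc-1 control, and CDH1 was at the floor in Panc-1. The keratins KRT8, KRT18 and KRT19 were lower by more than 2-fold in both treated Panc-1 libraries, at between -3.21 and -1.99. Of the other epithelial markers, EPCAM had 0.51 and -0.50 in Panc-1, MUC1 had -0.57 and -0.65 there, and CDH1 had 0.66 and 1.17 in PK-1. The keratins had values between -0.92 and -0.11 in PK-1. Their part in the values of the 10 genes was not tested. Of the 6 markers of immune, endothelial and stromal cells, 5 were at the floor in every library, and CD14 was barely above it in the Panc-1 control and at it elsewhere. CDKN2A was at the floor in all 6 libraries and SMAD4 in those of PK-1.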

How the data were processed

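RNA was sequenced from PK-1 and Panc-1 cells by a strand-specific polyA kit, with 1 library per condition. The authors deposited log2 TPM values for each library, with values under 1 TPM raised to 1 TPM. The submitters' processing notes name hg38; the aligner, counter, annotation and use of strand are not given in the sources used here. Counts were not used here, so depth is unknown and no interval is given.

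Values were returned to TPM and compared as log2 ratios after a pseudocount of 1 TPM was added, with Python 3.11.15, pandas 2.3.3 and numpy 2.4.6; figures were drawn with matplotlib 3.10.9. With 1 library per condition no test was possible, and a 2-fold threshold took its place. Entries above 1 TPM in at least 1 of the 3 libraries of a line were counted as the background. The calculation was tested on simulated data, with large changes set into well-expressed entries. That test does not bear on how reliable calls near 2-fold or at low levels are.

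Named genes were the 10 members, pathway genes past 2-fold in the same direction in both comparisons of a line with at least 10 TPM in it or in all 4 comparisons, the 2 most abundant genes of a list with none, and the 3 nearest entries to BBC3, PMAIP1 and TNFRSF10B. Members and lists were chosen with earlier results of these data known. Other pseudocounts, median-ratio rescaling, other thresholds and an expression filter were tried. Promoter windows and coordinates came from RefSeq (GRCh38.p14), and protein sequences were not used here. 2 genes of the pathway lists are not reported here, and counts are over the others.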

Additional observations from a re-analysis of the deposited data

Results flagged for a closer look

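3 genes were singled out because both treated libraries of Panc-1 lay on one side of their control and both of PK-1 on the other. The mean log2 fold change of Panc-1 minus that of PK-1 was 1.34 for BCL2L11, -0.85 for BOK and -1.71 for BIRC3. These differences between the lines were not tested, since there was 1 library per condition and both comparisons of a line share its control. The PK-1 values of BCL2L11 and those of BIRC3 and BOK with RARγi-2 were within the spread between treated libraries, and that of BOK in Panc-1 with RARγi-1, -0.33, was close to the spread there of 0.32, so the opposite signs rest on small differences.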

How the results depend on the processing

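No paired analysis was possible because each condition had 1 library, and for the same reason no replicate could be left out. At a 1.5-fold threshold, the number of member genes lower than the control became 1 in PK-1 with RARγi-1, 1 in Panc-1 with RARγi-1 and 1 in Panc-1 with RARγi-2, from 0 in each, and the number higher became 3 in PK-1 with RARγi-2 (from 1) and 5 in Panc-1 with RARγi-1 (from 3). At 3-fold, the number higher became 1 in PK-1 with RARγi-1 and 1 in each Panc-1 comparison, and the number lower in PK-1 with RARγi-2 became 0. Median-ratio rescaling changed the treated library relative to its control by 0.13 on the log2 scale in PK-1 with RARγi-1 and by 0.10 in Panc-1 with RARγi-1, in the direction of lower fold changes, and by -0.03 and -0.01 with RARγi-2; single genes moved by other amounts because the pseudocount was added afterwards. Under it BCL2L1 in PK-1 with RARγi-1 (0.91) and BCL2L11 in Panc-1 with RARγi-1 (0.92) no longer passed 2-fold, and PMAIP1 in PK-1 with RARγi-2 (1.01) did, which made the number higher there 2. Leaving out BIK, an alternative chosen after seeing the data, moved the pro- minus anti-apoptotic difference in Panc-1 from -0.14 to 0.17 with RARγi-1, which turned its sign, and from 0.63 to 1.16 with RARγi-2. Summing BCL2L2 with its read-through gene, also chosen after seeing the data, moved its log2 fold change in PK-1 with RARγi-1 from 1.11 to 1.98. Other pseudocounts moved no count of member genes or share of all entries past 2-fold by over 1.5 times, and neither did the filter at 5 TPM for the shares, for which alone it was run. Depth is unknown, and levels near the floor, such as BBC3 in the PK-1 control, limit the ratios built on them.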

Other observations

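Genes of pyroptosis and necroptosis, cell death routes outside the BCL2 family, were looked at as a list of 8 chosen after values were seen, and it supports nothing by its choice. With RARγi-1, 1 was higher and 0 lower by more than 2-fold in PK-1, and 2 were higher and 1 lower in Panc-1. With RARγi-2, 2 were higher and 0 lower in PK-1, and 1 was higher and 1 lower in Panc-1. The genes above the floor numbered 7 in PK-1 and 5 in Panc-1. Among all entries the share higher ran from 7.3% to 11.9% and the share lower from 4.85% to 12.3%. CASP4, an inflammatory caspase that senses lipopolysaccharide, was higher by more than 2-fold in all 4 comparisons. Its level was 88.1, 261 and 276 TPM in the PK-1 control, RARγi-1 and RARγi-2 libraries and 25.2, 63.0 and 65.6 TPM in those of Panc-1. PYCARD, the inflammasome adaptor ASC, was lower by more than 2-fold in both Panc-1 comparisons, at -1.09 and -2.02 on the log2 scale, and had -0.28 and -0.95 in PK-1. RIPK3, the kinase of necroptosis, was at 3.88, 8.10 and 11.8 TPM in PK-1 and at the floor in Panc-1. MLKL, by contrast, was below its control in all 4 comparisons. Its PK-1 values were -0.14 with RARγi-1 and -0.21 with RARγi-2, both within the spread of that line. The Panc-1 values of MLKL were larger in size, -0.50 and then -0.82. CASP1 was at the floor throughout Panc-1, and its PK-1 values split by inhibitor, 0.42 with RARγi-1 but -0.31 with RARγi-2. DFNA5, which encodes gasdermin E, had log2 fold changes of 0.67 and 0.27 for PK-1, against 1.62 and 0.72 for Panc-1. GSDMD, which encodes the pore-forming gasdermin D, lay between -0.29 and 0.28 in the 4 comparisons, and ZBP1 was at the floor in all 6 libraries.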
